A study of Mus musculus with 2 samples.

Results

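CTCF binding was described at 8 genes linked to polycystic kidney disease: Pkd1, Tsc2, Pkd2, Pkhd1, Bicc1, Invs, Glis2 and Cys1. The rule lists the genes by name and uses no measured value, though the list was drawn up with earlier results of these data known. Each GENCODE gene span on the mm10 assembly was taken with 50 kb on each side, and Pkd1 and Tsc2, which are neighbours on chromosome 17, were taken as 1 window. The 7 windows cover 1824.71 kb and hold the summits of 89 of the 65482 peaks in the optimal list, the larger of the 2 lists that the authors thresholded by reproducibility (IDR). Not every peak of that list overlaps a peak in both library lists. All 8 members had an entry in the annotation and at least 1 peak in their window.

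The data are 2 CTCF chromatin immunoprecipitation libraries that form 1 group: kidney of B6NCrl mice at an age of 0 days, with no genotype, transgene or treatment in the labels and with sex not recorded. The labels call the libraries biological replicates but give both the same donor and the same biosample. Whether they come from separate animals is therefore not known, and differences between them may be technical. The files are peak lists with no read counts and no expression values, so depth is unknown, the labelled tissue could not be checked against marker genes, and there is no other condition to compare with. In whole kidney, binding in few cells and weak binding in many cells cannot be told apart. In what follows, the percentile of a peak is its place by the authors' signal value within the optimal list, with the highest-signal peak at the top, and a library rank is the place of the overlapping peak among the 300000 peaks of that library's own list, with rank 1 the highest.

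CTCF is a zinc-finger protein that binds a long motif without symmetry, blocks enhancers from reaching across it and, with cohesin, anchors chromatin loops, most often between motifs that point at each other. Polycystic kidney disease is a failure to hold tubule diameter, and most of its gene products act in or around the primary cilium of tubule cells. Pkd1 and Pkd2 encode the polycystins of the dominant disease and Pkhd1 encodes fibrocystin of the recessive disease. Tsc2 encodes tuberin, a brake on mTOR signalling, and in people a deletion that removes it together with its neighbour PKD1 gives early and severe cysts. Bicc1 encodes an RNA-binding protein, Invs the ciliary protein inversin, Glis2 a zinc-finger transcription factor and Cys1 the ciliary membrane protein cystin; loss of each gives cystic kidneys in mice or people.

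The motif matches printed next are those under the highest-signal peak of each window and under the start-site peaks of Glis2 and Cys1 that held a match. They were read 5′ to 3′ on the strand of the match from the GRCm38.p6 genome, the same assembly as mm10. Capitals mark the 19-bp match to a CTCF matrix learned from these peaks, whose consensus was TGGCCACCAGGGGGCGCTA, and lower case marks the flanking bases.
Pkd1-Tsc2 window, flank (chr17:24654180-24654238, reverse strand): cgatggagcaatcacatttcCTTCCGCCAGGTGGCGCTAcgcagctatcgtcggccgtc
Pkd2 window, flank (chr5:104446393-104446451, reverse strand): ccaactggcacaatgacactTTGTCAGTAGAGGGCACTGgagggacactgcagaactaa
Pkhd1 intron (chr1:20612879-20612937, forward strand): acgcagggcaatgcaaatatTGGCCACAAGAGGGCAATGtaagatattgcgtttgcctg
Bicc1 intron (chr10:70963759-70963817, reverse strand): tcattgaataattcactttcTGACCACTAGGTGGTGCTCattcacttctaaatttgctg
Invs intron (chr4:48407472-48407530, reverse strand): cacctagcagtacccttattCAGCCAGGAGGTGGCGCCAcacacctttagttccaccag
Glis2 window, Tfap4 intron (chr16:4551185-4551243, forward strand): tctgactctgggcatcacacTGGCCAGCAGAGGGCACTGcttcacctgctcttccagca
Glis2 inner start site (chr16:4607978-4608036, reverse strand): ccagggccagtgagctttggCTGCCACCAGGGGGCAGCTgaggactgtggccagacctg
Cys1 window, flank (chr12:24697238-24697296, reverse strand): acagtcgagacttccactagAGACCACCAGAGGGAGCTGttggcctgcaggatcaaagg
Cys1 start site (chr12:24680710-24680768, forward strand): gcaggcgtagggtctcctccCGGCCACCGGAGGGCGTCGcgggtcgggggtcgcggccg

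The members differed widely in how densely CTCF peaks lay around them. Over their summed length the windows held 4.88 peaks per 100 kb. That total is weighted by length, with 660.29 kb in the Pkhd1 window alone, so it is not the same measure as a median over genes. The median protein-coding gene had 4.45 per 100 kb of its span plus 50 kb on each side (quartiles 1.95 and 7.36, over 21755 genes), and the 20 chromosomes as a whole had 2.49. The Glis2 window held 25 peaks, or 19.2 per 100 kb, and only 26 protein-coding genes had a denser window. Cys1 followed with 14 peaks and 12.1 per 100 kb (1194 genes denser). With library 1 left out it had 17 peaks and 664 genes denser, and with library 2 left out 14 peaks and 1073. Then came the joint Pkd1-Tsc2 window with 19 peaks and 10.4 per 100 kb (2202 genes denser). That window fell to 14 peaks and 7.66 per 100 kb (4151 denser) in the conservative list, the smaller of the 2 thresholded lists. It held 17 peaks (3619 denser) with library 1 left out and 18 (2444 denser) with library 2 left out. Taken alone in the optimal list, Pkd1 had 9.54 per 100 kb and Tsc2 had 7.31. Bicc1 lay near the median of all genes, with 16 peaks and 4.75 per 100 kb. Pkd2 (3 peaks, 2.05 per 100 kb) and Invs (5 peaks, 1.98 per 100 kb) lay near the lower quartile. Pkhd1, the longest member at 560.29 kb, had 7 peaks and the lowest density, 1.06 per 100 kb, with 17884 genes denser. The 3 densest windows also held the most protein-coding genes other than the members, 7 in the Pkd1-Tsc2 window, 5 at Glis2 and 3 at Cys1, against 2 at Pkd2, 2 at Invs and none at Pkhd1 or Bicc1. The part that gene content plays in the density was not tested.

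**Figure D1:**
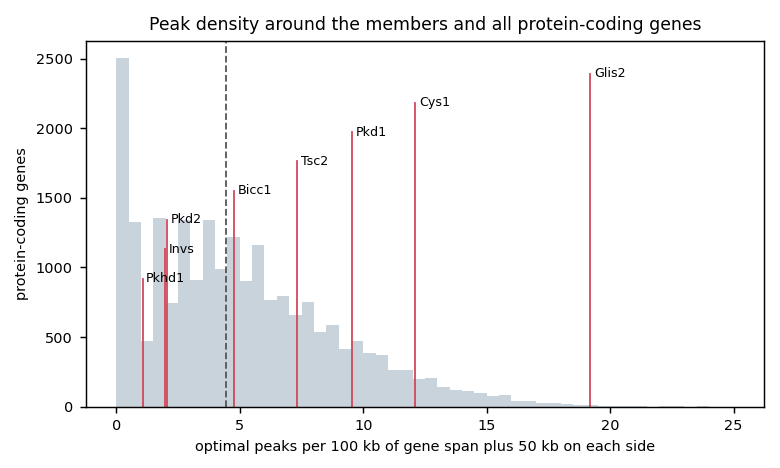
Optimal peaks per 100 kb of gene span plus 50 kb on each side (horizontal axis) for 21755 protein-coding genes, as a histogram of genes (vertical axis), with the 8 members as red lines (line heights only separate the labels) and the median over genes, 4.45, as a dashed line. Glis2 at 19.2 stands in the right tail, and Pkhd1 at 1.06, Invs at 1.98 and Pkd2 at 2.05 stand left of the median.

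CTCF lay at a start site of Glis2 and of Cys1 and of no other member. A summit lay within 1 kb of an annotated transcription start site (TSS) in these 2 of the 8 members, or 25% (95% Wilson interval 7.15 to 59.1, counting error only), beside 39.4% of all protein-coding genes. The interval contains the share of all genes, so at 8 genes no difference from it was detectable. The result turns on the distance used, because 3 members lay just outside it: the nearest summit was 1014 bp from a Pkd1 TSS, 1046 bp from an Invs TSS and 1147 bp from a Tsc2 TSS. With 2500 bp on each side, 5 members had a summit (Pkd1, Tsc2, Invs, Glis2 and Cys1) and so did 49.9% of all genes. The nearest summit was 3751 bp away at Bicc1, 5129 bp at Pkhd1 and 13002 bp at Pkd2, where the median over all genes was 2521 bp.

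Most of the near start sites were not the start of the main coding transcript. By the gene's 5′ end alone, none of the 8 members had a summit within 1 kb, where 31.3% of all genes had one. Counting only start sites of protein-coding transcripts, Cys1 alone had one, 20 bp away. Pkd1 and Glis2 lay just outside by this rule, at 1014 bp and 1039 bp. The share of all genes by this rule is not given here, so the count does not set the members apart. The high-signal Glis2 summit lies 624 bp upstream of a retained-intron transcript that starts 13.9 kb inside the gene, and Glis2's own 5′ end was 1039 bp from a summit. The Invs summit near a TSS lies upstream of a non-coding transcript that starts 102.4 kb inside the gene, while the coding start of Invs was 29733 bp from any summit, the farthest of the 8. The Tsc2 value of 1147 bp comes from a retained-intron transcript near the 3′ end of that gene, and its coding start was 2291 bp from a summit.

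**Figure D2:**
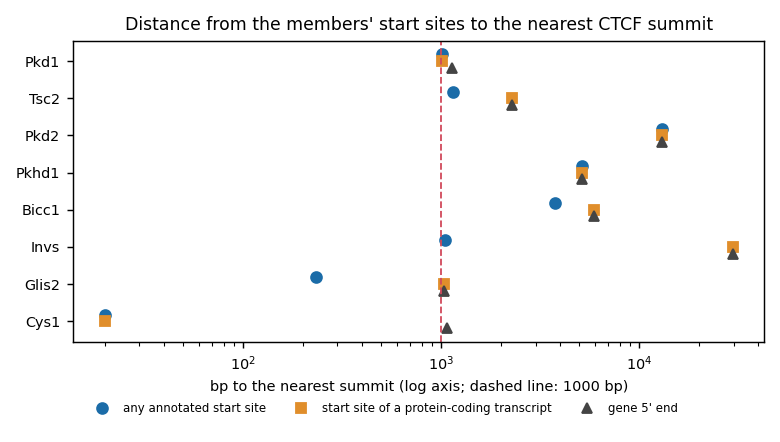
Distance in bp (log axis) from each member's start sites to the nearest optimal summit, for any annotated start site (circles), start sites of protein-coding transcripts (squares) and the gene's 5′ end (triangles), with 1000 bp as a dashed line. Cys1 at 20 bp and Glis2 at 234 bp lie left of the line, Pkd1, Invs and Tsc2 lie just right of it by any start site, and Invs moves to 29733 bp when only coding transcripts are counted.

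Weak peaks lay at start sites of other members in the pooled list, which was made from both libraries together without the reproducibility threshold and holds 300000 peaks. At the Pkd1 5′ end such a peak ranked 69544 in the pooled list (ranks 68921 and 84063 in library 1 and library 2). At the Tsc2 5′ end the rank was 70240 (89618 and 55887) and at Bicc1 72201 (81447 and 85905). These ranks lie just past the 65482 peaks that the optimal list holds. At Pkhd1 the rank was 123493, at Invs 224694 and at Pkd2 278373, far down the list. The share of all genes with a pooled peak at a start site is not given here, so having one does not set these members apart. With library 1 left out and the upper 65482 peaks of library 2 used in place of the optimal list, Tsc2 joined Glis2 and Cys1, and with library 2 left out Pkd1 joined them.

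**Figure D3:**
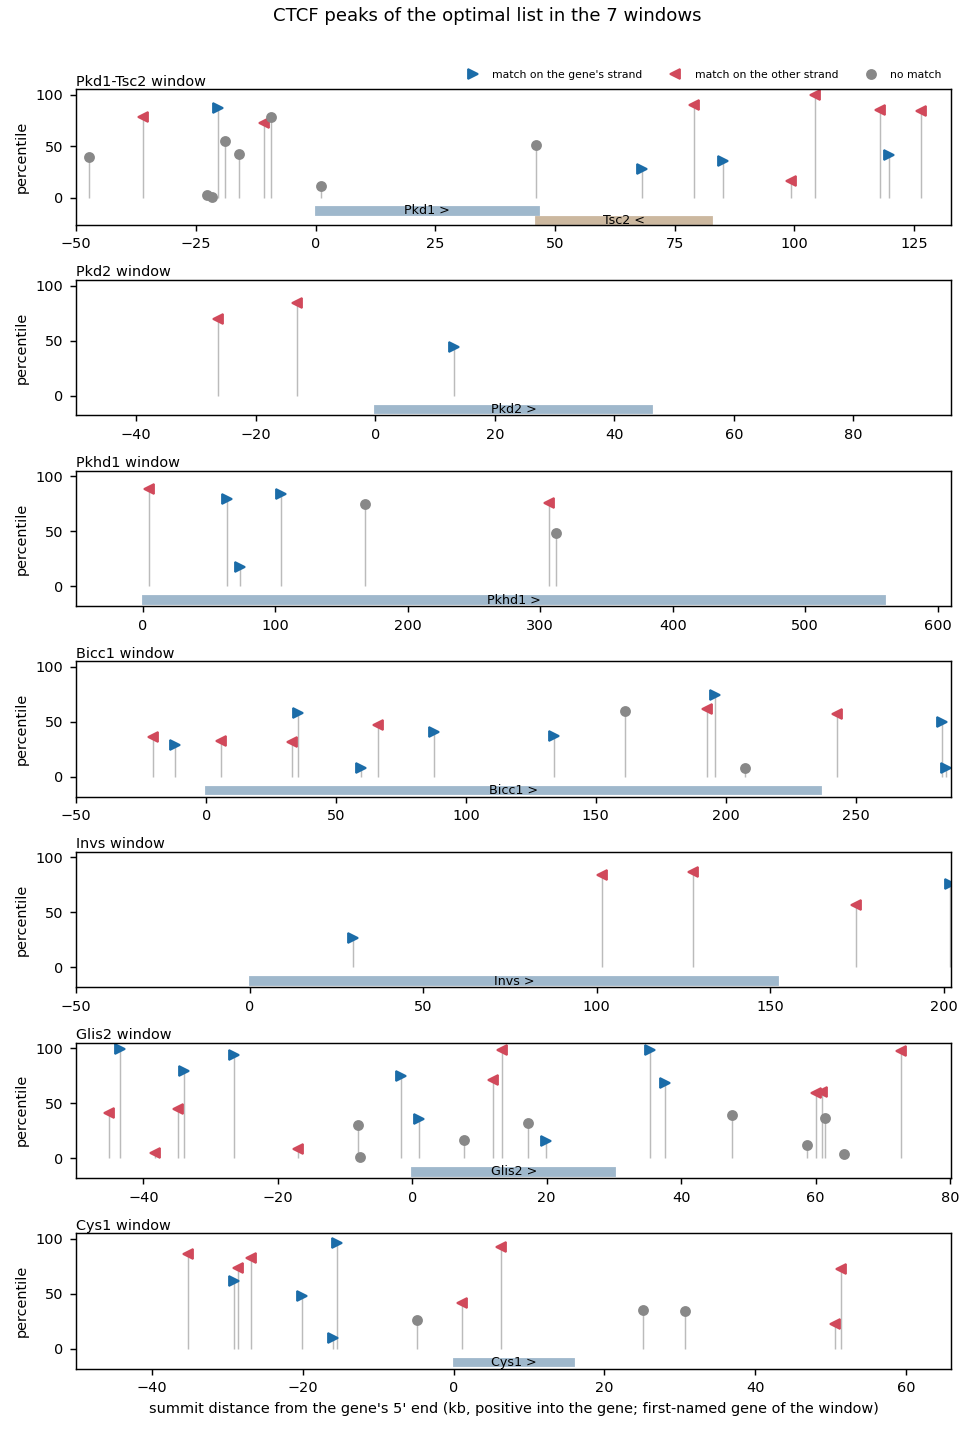
Optimal summits in the 7 windows by distance from the 5′ end of the gene (kb, positive into the gene; from Pkd1 in the joint window) and by percentile of signal (vertical axis), with gene bodies as bars. Triangles give the strand of the motif match relative to the gene and grey circles have no match; the summits crowd around Glis2, Cys1 and the flanks of Pkd1 and Tsc2, and the 3′ side of Pkhd1 is empty.

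In the Pkd1-Tsc2 window most binding lay outside both genes. Of its 19 peaks, 4 had the summit in a gene body and 15 in the flanks, and 10 of the 19 lay within 1 kb of a start site of a neighbour: Caskin1, Traf7, Rab26, Slc9a3r2 or Zfp598. Pkd1 itself (chromosome 17, 24549834 to 24596508, forward strand) had only 2 summits, 1 at each end. The first, at 24550964 in an intron 1014 bp from a start site, was weak, at percentile 11.4 with ranks 50892 and 101415, so it lay in the upper set (the 65482 highest-signal peaks) of library 1 and not of library 2. The other, at 24595908, lies in untranslated exons of both Pkd1 and Tsc2, where the 3′ ends of these convergent genes overlap. It stood at percentile 50.9 with close ranks of 31627 and 32734, and held no motif match. Between them 44.9 kb of Pkd1 held no summit. Tsc2 had 2 further summits in introns, of which that at 24628865 reached percentile 90.2 (ranks 7715 and 5887) and that at 24618077 reached 28.4 (ranks 42400 and 173366). The first was high in both libraries, and the second was modest in library 1 and outside the upper set of library 2. The highest peak of the window, at 24654216, lay in intergenic sequence 3889 bp upstream of Slc9a3r2, which encodes a scaffold protein of sodium-hydrogen exchangers. Its percentile was 99.2 and its ranks were 1287 and 372, so it was among the highest peaks of both libraries. Among the peaks at start sites of neighbours, the highest were at Rab26, a vesicle transport gene (86.9, ranks 8113 and 9524), Zfp598 (84.6, ranks 7592 and 12653) and Traf7 (78.7, ranks 12677 and 15310). Each of these lay near a start site inside its gene, and the summits closest to any start site of these genes were lower. Those stood at 42.9 for Rab26 (41 bp away), 41.3 for Zfp598 (8 bp) and 1.20 for Traf7 (159 bp). The start-site peaks of these genes ranged widely, and 2 others at Traf7, at percentiles 2.64 and 1.20, were among the lowest of the 89 and were in the upper set of neither library.

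Pkd2 (chromosome 5, 104459450 to 104505819) had CTCF on either side of its start and not at it. A summit at 104446420, 13030 bp upstream, stood at percentile 84.2 (ranks 8259 and 12603), and a summit in an intron at 104472572, 13002 bp downstream of a start site, stood at 44.2 (ranks 35853 and 38976). The upstream match lies on the strand opposite to Pkd2 and the intron match on the strand of Pkd2, so this pair points apart, away from the start. The third peak, at percentile 69.9, lay 2009 bp upstream of Spp1, which encodes the secreted phosphoprotein osteopontin. The remaining 83.2 kb of the window, which includes the 3′ part of Pkd2, held no summit. All 3 peaks held a match, and each library had all 3 in its upper set.

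Pkhd1 (chromosome 1, 20057779 to 20618064, reverse strand) held all 7 of its peaks inside the gene and none in its flanks. The highest, at 20612911 in an intron 5153 bp from the 5′ end, had percentile 88.6 and ranks of 7606 and 7636. Further in lay summits at percentiles 79.0 (20554598), 17.1 (20544742) and 84.1 (20513907). A summit at 20450312 lay in a coding exon at percentile 75.0 (ranks 16742 and 15961), the only one of the 89 in a coding exon of a member more than 1 kb from its start sites. Of the 2 remaining summits, farther into the gene, that at 20311699 had percentile 75.7 and that at 20306355 had 48.6. From there to the 3′ end, 248.6 kb of Pkhd1 held no summit. The 5′ part thus carried all the peaks, 5 of the 7 were in the upper 50% of the optimal list by signal, and each library had all 7 in its upper set.

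Bicc1 (chromosome 10, 70922832 to 71159700, reverse strand) was the opposite case, with many peaks of modest signal. Of its 16 peaks 11 lay in its introns and 5 in its flanks, their median percentile was 38.9, and the highest, at 70963804, reached 74.2 (ranks 17072 and 15740). The summit nearest to any start site, 3751 bp from an inner one, was weak (70952240, percentile 7.69, ranks 99787 and 53917). The summit nearest to the 5′ end, at 71153790, lay 5910 bp into the gene at percentile 32.7 (ranks 51904 and 33595). No other protein-coding gene lies in this window. Matches were frequent all the same: 14 of the 16 peaks held one.

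Invs (chromosome 4, 48279760 to 48431954, forward strand) had 3 summits in its introns and 2 in its downstream flank. The intron summits at 48407504 (percentile 86.9, ranks 9134 and 7959) and 48381142 (84.1, ranks 13601 and 7109) lay deep in the gene, and that at 48309535 nearer to the start was weaker (26.7, ranks 44845 and 74455). The first 2 were high in both libraries, while the weaker one fell outside the upper set of library 2. The flank summits lay in an intron of Tex10 and 8048 bp upstream of it, at 56.7 and 75.7. The 79.8 kb from the upstream edge of the window to the first summit, which includes the start of Invs, held no peak. Each of the 5 peaks held a match.

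Glis2 (chromosome 16, 4594713 to 4624924, forward strand) had 6 summits in its 30.21 kb, more per length than any other member, and 19 in its flanks. The summit at 4608003, near the inner start site, stood at percentile 98.2 with ranks 1757 and 1158, and was the highest-signal peak inside any of the 8 genes. The second start-site summit, at 4611862 in a coding exon, was weaker and differed between libraries (31.9, ranks 40332 and 75324), and no match lay under it. Next to the 5′ end, a summit 1640 bp upstream stood at 74.9 and one 1039 bp downstream at 35.1. The flanks of Glis2 held 3 more peaks of the upper 5% of the optimal list. At 4551221, in an intron of the transcription factor gene Tfap4, the percentile was 99.1 (ranks 262 and 1212). At 4630130, 464 bp upstream of a start site of Coro7, which encodes a coronin family protein, it was 98.1 (ranks 1169 and 1862). At 4667374, in an intron shared by Coro7 and Dnaja3, it was 97.2 (ranks 1337 and 2294). All of these were near the top of both libraries. An intergenic summit 26600 bp upstream of Glis2 stood at 93.7 (ranks 2310 and 6433). The same window also held some of the weakest peaks, down to percentile 0.919, and that weakest summit shares its peak in both library lists with a summit at percentile 30.3. In the conservative list the Glis2 window held 21 peaks, with 101 genes denser; by library 2 alone it held 21 (350 denser) and by library 1 alone 22 (73 denser).

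Cys1 (chromosome 12, 24665833 to 24681813, reverse strand) was the only member with a summit within 1 kb of the start of a protein-coding transcript, with Pkd1 and Glis2 just outside. This summit, at 24680739, lies in a coding exon 20 bp from that start and 1074 bp from the gene's 5′ end, at percentile 41.1 with close ranks of 41069 and 38885. A stronger summit at 24675583, in an intron, stood at 92.6 (ranks 3793 and 5847). The other 12 peaks lay in the flanks, 2 of them at start sites of neighbours: Rrm2, a ribonucleotide reductase subunit gene (82.1), and Klf11, a zinc-finger factor gene (33.9). The highest peak of the window, at 24697268, lay in intergenic sequence 15455 bp upstream of Cys1 (96.5, ranks 617 and 4744). Beyond Rrm2, a summit at 24717066 stood at 86.5 (ranks 7814 and 10006). A weak summit beside the highest one, at 24697802, had percentile 9.93 and no overlapping peak in the list of library 2.

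By signal, the 89 window peaks as a whole lay around the middle of the optimal list. Their median percentile was 49.98, 44 were in the upper 50%, and 6 were in the upper 5%: 4 in the Glis2 window and 1 each in the Pkd1-Tsc2 and Cys1 windows. The windows differed among themselves. Pkd2, Pkhd1 and Invs, which had few peaks, had medians of 69.9, 75.7 and 75.7, and Bicc1 and Glis2, which had many, had 38.9 and 41.4; Pkd1-Tsc2 and Cys1 lay between, at 50.9 and 54.5. The windows with few peaks thus had the higher medians. By place, 20.2% of window peaks (18 of 89, 95% Wilson interval 13.2 to 29.7) lay within 1 kb of a start site of any protein-coding gene, beside 16.6% of all optimal peaks. Of these 18, 3 were at members and 15 at neighbours. Introns held 47.2% of window summits and 37.4% of all, and intergenic sequence 27.0% and 41.6%, where a window built around genes holds less intergenic sequence by construction.

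The share of window peaks with a motif match did not differ detectably from that of all peaks. A match lay within 100 bp of the summit in 66 of 89 window peaks, or 74.2% (95% Wilson interval 64.2 to 82.1), beside 72.8% of all optimal peaks and 3.57% of control windows 2 kb away. The pass score was set on these same control windows, so their share follows largely from that setting. Window peaks with a match had a median percentile of 61.6 and those without of 33.9, near the 58.7 and 29.5 over all peaks. At start sites of any gene 61.1% of window peaks had a match (11 of 18, beside 46.5% of all peaks at start sites), and elsewhere 77.5% (55 of 71, beside 78.1%). The summits without one were mostly in the Pkd1-Tsc2 window (8 of 19) and the Glis2 window (8 of 25), and each summit at Pkd2 and Invs had one. By strand, 30 matches lay on the strand of the window's gene, or of Pkd1 in the joint window, and 36 on the other. Between neighbouring matches, 16 of 59 pairs pointed at each other (27.1%), 25 pointed the same way (42.4%) and 18 pointed apart (30.5%), beside 23.7%, 52.7% and 23.7% of neighbouring pairs over all peaks.

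Of the 7 windows, Bicc1 had the largest share of matches with a core that recurs in repeats. A 12-base core, CCAGAAGAGGGC, at positions 4 to 15 of the match, was the most frequent core under summits in soft-masked sequence, which marks interspersed and simple repeats. It was looked for after the peaks had been seen. It made up 13 of the 66 window matches (19.7%) and 15.9% of all matches, and 6 of the 14 matches at Bicc1 (42.9%). None of the matches at Pkd2 or Pkhd1 had it. Of the Bicc1 summits 9 of 16 (56.2%) lay in soft-masked sequence, beside 21.3% over the 7 windows and 22.0% of all optimal peaks. The 6 Bicc1 matches with this core are printed to show how far the bases outside the match are shared.
Bicc1 flank, summit 70916887 (chr10:70916851-70916909, forward strand): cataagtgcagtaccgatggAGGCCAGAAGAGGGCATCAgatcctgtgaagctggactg
Bicc1 intron, summit 71071866 (chr10:71071810-71071868, reverse strand): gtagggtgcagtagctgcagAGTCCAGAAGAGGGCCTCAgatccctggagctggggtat
Bicc1 intron, summit 71100049 (chr10:71100080-71100138, reverse strand): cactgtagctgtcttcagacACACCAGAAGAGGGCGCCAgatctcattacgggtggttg
Bicc1 intron, summit 71124174 (chr10:71124151-71124209, reverse strand): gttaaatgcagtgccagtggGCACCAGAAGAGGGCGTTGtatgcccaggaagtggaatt
Bicc1 intron, summit 71153790 (chr10:71153763-71153821, forward strand): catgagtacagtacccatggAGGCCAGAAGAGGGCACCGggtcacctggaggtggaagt
Bicc1 flank, summit 71180271 (chr10:71180244-71180302, forward strand): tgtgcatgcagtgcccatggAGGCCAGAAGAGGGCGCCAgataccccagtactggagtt

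The bases around these 6 matches were also shared in part. Over the 40 bases outside the match, read along its strand without gaps, the 15 pairs of Bicc1 core matches shared a median of 47.5% of bases (25% to 70%). The 28 pairs of Bicc1 matches without the core shared a median of 25% (15% to 62.5%). The 48 pairs with the core in 1 of the 2 matches lay between, at a median of 31.2%, and ranged from 17.5% to 77.5%, so the highest value of all was in a pair of this kind. Pairs of matches are not independent of each other, so these values are a description. Across the 7 windows core matches had lower signal, with a median percentile of 40.4 beside 72.7 for the other matches, and over all optimal peaks the medians were 35.4 and 64.0. At Bicc1 they were 38.3 and 42.1, so there both kinds were modest. The 2 core matches upstream of Pkd1, near Rab26, at percentiles 86.9 and 72.9, were the highest of the 13. Which repeat family these sequences belong to was not checked, and reads from repeats can align to several places; how the authors treated such reads is not given.

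**Figure D4:**
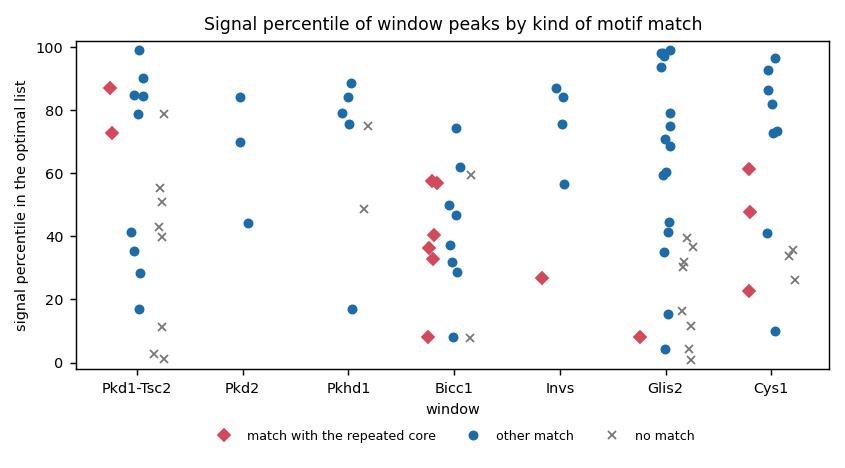
Percentile of signal in the optimal list (vertical axis) of the 89 window peaks by window (horizontal axis), with matches that hold the repeated core as diamonds, other matches as circles and peaks without a match as crosses. Bicc1 has 6 of the 13 diamonds and no peak above 74.2, while the circles of the Glis2, Cys1 and Pkd1-Tsc2 windows reach above 96.

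The libraries gave similar orders of the window peaks. Of the 89, 87 overlapped a peak in both library lists, and Spearman's rho between their ranks was 0.893 (0.911 over all optimal peaks); these peaks come from a list thresholded by reproducibility and share their genome sequence, so this is a description. The median difference between the percentiles of a peak in the 2 libraries was 5.28 points (6.6 over all optimal peaks). The upper set of both libraries held 69 of the 89, or 77.5% (95% Wilson interval 67.8 to 85.0), beside 78.6% of all optimal peaks. A further 12 were in the upper set of library 1 only, 3 of library 2 only and 5 of neither. The peaks that differed most were of middle or low signal: 14 differed by over 20 points, among them an intron peak of Bicc1 at 71093519 (51.8 in library 1 and 16.0 in library 2) and a peak at 24634921 in Nthl1, beside Tsc2 (16.2 and 50.7). Among these 14, 2 neighbouring summits upstream of Glis2 overlap the same peak in each library list, so 1 difference is counted for both. For the counts of 12, 3, 5 and 14, shares over all optimal peaks are not given here, so they describe the window peaks alone. The highest-signal peaks of the 7 windows differed less, from -7.18 points at Pkd2 to 1.48 points at Bicc1 (library 2 minus library 1).

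**Figure D5:**
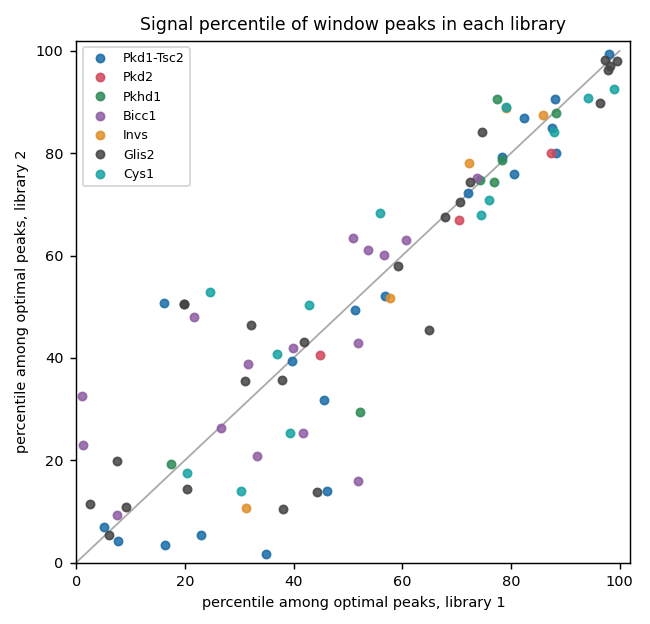
Percentile among optimal peaks in library 1 (horizontal axis) and library 2 (vertical axis) for the 87 window peaks matched in both, coloured by window, with equality as a grey line. The 14 peaks that differ by over 20 points lie at or below percentile 52.2 in library 1, and the points at the upper right lie closer to the line.

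Within 1 kb, other genes of cystic kidney disease and nephronophthisis carried start-site peaks at a rate whose interval contains that of all genes. Of 36 such genes, listed by name, 18 had a summit within 1 kb of a TSS (50%, 95% Wilson interval 34.5 to 65.5), beside 39.4% of all genes and 2 of the 8 members. The count depended on the distance, and intervals at other distances are not given here. With 2500 bp on each side, 25 of the 36 had a summit, beside 49.9% of all genes. By the gene's 5′ end, 15 of the 36 had one within 1 kb, beside 31.3% of all genes. The highest was at Muc1, a mucin gene of tubulointerstitial kidney disease (percentile 96.9, ranks 2403 and 2085), followed by Cep164, a centriole appendage gene (91.9, ranks 9088 and 2491). Both are high in both libraries. Ttc21b, a gene of ciliary retrograde transport, stood at 81.0 (ranks 10993 and 13879). Alg9, a glycosylation enzyme gene, stood at 72.7 (ranks 18073 and 17516). Each of these 4 peaks held a motif match. Of the 18 genes, 9 had a match at the peak, 7 had a peak in the upper 50% by signal and 15 had one in both upper sets. Counted per peak, 46.5% of all peaks at start sites had a match and 78.6% of all optimal peaks, at any place, were in both upper sets. The median percentile of the highest start-site peak of these 18 genes was 38.7, beside 42.6 for all peaks at start sites. The values for the 18 genes are per gene and those over all peaks are per peak, so they are not the same measure. No summit lay within 1 kb of a TSS of Tsc1, the partner of Tsc2, or of Ganab or Dnajb11, which like Pkd1 are dominant cyst genes. The same held for Nphp4, Anks6, Anks3, Nek1, Ift172, Wdr19, Kif3a, Cep83, Cep290, Ofd1, Umod, Zfp423 and Sec63. As among the members, some lay just outside, with Sec63 at 1016 bp and Zfp423 at 1082 bp, and others far off, with Ganab at 21555 bp.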

How the data were processed

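CTCF ChIP-seq peaks of newborn mouse kidney (1 group, 2 libraries) were analysed from 5 deposited narrowPeak lists on mm10: 1 per library, 1 pooled, and a conservative and an optimal list that the authors thresholded by reproducibility (IDR), per the file names. Per the notes beside the files, each list also used 1 other alignment file; for aligner, caller, filters and threshold, nothing is given in the sources used here. The signal value of each peak is the one the authors deposited, on a scale that differs between lists, so it served only for ranks and percentiles within a list. Depth is unknown, which limits the precision of every rank; the 95% Wilson intervals cover counting error alone.

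Summits were placed against GENCODE M21 genes on GRCm38.p6, over 20 chromosomes (65470 of the 65482 optimal peaks). A promoter is 1 kb on each side of any annotated TSS. A library peak matched an optimal peak at 1 bp or more of overlap, and the highest such peak gave the rank. The upper set of a library is its 65482 highest-signal peaks. The 19-bp matrix was learned outside soft-masked sequence on odd-numbered chromosomes to score even-numbered ones and X, and the reverse, and a match passed the score that 1 in 10000 positions 2 kb away passed. The matrix search was tested on simulated data. Python 3.11.15, numpy 2.4.6, pandas 2.3.3, scipy 1.17.1 and pysam 0.24.0 were used.

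With 1 group, no test between groups was made; counts are set beside those over all genes or peaks. Members, the list of other cystic genes, alternatives and the naming rule were chosen with earlier results of these data known. The text names each member with its nearest start-site peak, the highest-signal peak of each window, peaks in the upper 5%, and, of the other cystic genes, those among the 5 with the highest-signal promoter peak and those without one, except some that are counted but not reported here by name. Further peaks, the repeated core, the flank identity, the pairing of neighbouring matches and the kinds of start site were chosen after the data had been seen.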

Additional observations from a re-analysis of the deposited data

How the results depend on the processing

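Of 57 values recomputed under other settings, 38 moved by less than the spread between libraries or within 1.5 times for counts, and 19 moved more. The median percentile of window peaks, 49.98 in the optimal list, was 52.6 in the conservative list, 51.3 to 52.5 with 1 library left out, 45.6 with 25 kb flanks, 48.8 with 100 kb flanks and 47.8 in the gene spans alone. In the upper 50% of the optimal list by signal the windows held 44 peaks, 16 of them in gene bodies, 1 member (Glis2) and 7 other cystic genes had a promoter peak, 88.6% of peaks had a match and 100% were in the upper set of both libraries. That last share was 87.7% in the conservative list and 62.9% at 50% reciprocal overlap. Gene spans alone held 34 peaks. Members with a promoter peak numbered 5 at 2500 bp and 0 by gene 5′ ends. Motif matches fell to 32.6% at the stricter score (1 in 100000 control positions) and to 52.8% by the fixed letters CCNNNAGNNGGC (43.5% of all optimal peaks). Apart from the fixed letters and, above, the promoter settings, shares over all peaks or genes at these settings are not given here. The other values in this paragraph therefore describe the windows and gene lists alone. Apart from the settings by construction (fewer peaks, a wider or narrower promoter, a stricter match), the cause was not tested. No paired analysis was possible because there is 1 group. Without read counts, depth and its limits could not be assessed.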
